A study of Homo sapiens with 6 samples.

Results

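The genes described here are 35 genes at the end of the long arm of human chromosome 3 (bands 3q27 to 3q29), from EIF4A2 to LMLN, among 60609 genes counted in the files. They were matched by symbol, and they had been picked because this stretch was lower in Delta-TRRAP than in WT, so their fold changes between the groups are given as a description and are not tested as evidence of that shift. The questions asked of them were whether the shift was uniform and which genes escaped it. Poly(A)-selected RNA of K562, an established human leukaemia line, was sequenced in 6 libraries. In all 6, the endogenous EP400 gene, which encodes the remodeling ATPase of the TIP60 complex, carried the dTAG degradation tag on each allele, and the cells received 500 nM dTAGV-1, which triggers loss of the tagged protein, for 24 h. The 3 WT libraries came from cells complemented with exogenous WT EP400, and the 3 Delta-TRRAP libraries from cells complemented with EP400 lacking the SANT and HD domains that hold the TRRAP module. Transgenes were expressed from the AAVS1 locus, and 1 clone of each complemented line was used, so clone and genotype cannot be told apart. The replicates were biological replicates of these clones and do not measure variation between clones.

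Neighbouring genes on a chromosome arm need not share a function. They can share chromatin domains, promoters that fire in both directions, and the number of DNA copies, which varies along the chromosomes of an aneuploid line such as K562. DNA copy number was not measured in these RNA libraries. Distal 3q holds housekeeping genes of translation, ubiquitin signalling, lipid synthesis and mitochondrial fusion beside regulated genes such as BCL6, a transcriptional repressor of germinal centre B cells, and TP63, a p53 family factor of epithelia.

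Libraries held 35076835 to 42616061 counts in genes. Normalized counts are counts divided by the relative size of the library after TMM scaling. The EP400 gene had normalized counts of 4951, 4924 and 5425 in WT and 5515.5, 6694 and 4350 in Delta-TRRAP, which overlapped and say nothing of the protein. Counts per gene do not tell transcripts of the endogenous gene from those of the transgene, which differs between the groups. All 8 erythroid markers examined averaged 100 normalized counts or more, and their sum ran from 34987 to 38087 in the WT libraries and from 45369 to 51839 in the Delta-TRRAP libraries, although the labels call the cells lymphoblasts. Most of that difference was HBZ, the embryonic zeta globin, at 1451.5 in WT and 10584.5 in Delta-TRRAP, while the means of GATA1, LMO2, HBG1 and HBG2 were lower in Delta-TRRAP. Of 7 lymphoid markers, CD3D alone reached 100, the pan-B marker MS4A1 was at 0, and the sum ran from 493 to 503 (WT) and from 423 to 465 (Delta-TRRAP). Of 7 fibroblast markers, 4 had a mean of at least 5, LUM was at 0, and the sum ran from 35.9 to 57.5 (WT) and from 908 to 953 (Delta-TRRAP), where COL1A2 alone averaged 868 against 1.63 in WT. Their part in the results below was not tested. In bulk RNA, fewer cells of a type and less RNA per cell cannot be told apart.

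The promoters of 5 members are shown first, because these genes mark the limits of the pattern: BCL6 was furthest above the other members and NRROS furthest below, PAK2 and FBXO45 were the abundant members with the largest falls, and FBXO45 and LMLN each start head to head with another member. Each line holds the 250 bases before the RefSeq start (GRCh38.p14), 5′ to 3′ on the strand of the gene. Capitals mark GGGCGG (the GC box of Sp1 family factors), CACGTG (the E-box of MYC and related factors) and CCAAT (the box bound by NF-Y) on either strand.
BCL6, chr3:187745469-187745718, minus strand: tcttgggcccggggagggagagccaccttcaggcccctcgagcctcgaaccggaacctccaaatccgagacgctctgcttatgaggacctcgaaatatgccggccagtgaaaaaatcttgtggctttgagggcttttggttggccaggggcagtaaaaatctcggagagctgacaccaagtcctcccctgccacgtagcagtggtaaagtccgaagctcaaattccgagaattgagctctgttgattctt
NRROS, chr3:196639444-196639693, plus strand: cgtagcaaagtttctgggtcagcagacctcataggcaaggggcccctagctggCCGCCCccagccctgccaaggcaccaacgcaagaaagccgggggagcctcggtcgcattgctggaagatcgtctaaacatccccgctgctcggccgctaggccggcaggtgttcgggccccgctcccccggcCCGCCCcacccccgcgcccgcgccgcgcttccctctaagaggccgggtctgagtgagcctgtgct
PAK2, chr3:196739607-196739856, plus strand: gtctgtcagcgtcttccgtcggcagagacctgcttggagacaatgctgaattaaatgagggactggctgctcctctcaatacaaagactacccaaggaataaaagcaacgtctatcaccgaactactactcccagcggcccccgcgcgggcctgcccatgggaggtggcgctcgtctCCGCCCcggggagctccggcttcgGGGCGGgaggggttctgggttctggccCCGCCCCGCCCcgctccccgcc
FBXO45, chr3:196568410-196568659, plus strand: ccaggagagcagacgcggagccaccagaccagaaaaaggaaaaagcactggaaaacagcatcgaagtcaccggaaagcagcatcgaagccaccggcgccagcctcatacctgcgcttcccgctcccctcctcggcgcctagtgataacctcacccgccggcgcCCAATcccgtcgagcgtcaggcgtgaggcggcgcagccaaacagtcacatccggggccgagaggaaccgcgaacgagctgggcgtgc
LMLN, chr3:197959967-197960216, plus strand: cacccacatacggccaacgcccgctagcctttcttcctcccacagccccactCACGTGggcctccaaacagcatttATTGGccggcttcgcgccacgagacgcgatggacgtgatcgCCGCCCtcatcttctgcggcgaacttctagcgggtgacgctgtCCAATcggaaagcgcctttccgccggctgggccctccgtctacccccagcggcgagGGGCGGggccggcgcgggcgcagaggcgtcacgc

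RefSeq windows were matched for 34 of the 35 members. Over these windows, 1 for each gene, GGGCGG was found in 22 (64.7%), against 42.2% of 27305 promoters of the same length genome-wide. CCAAT was found in 12 (35.3%, against 33.0%), CACGTG in 1 (2.94%, against 6.46%) and TATAAA, the TATA box, in 1 (2.94%, against 11.2%). The single CACGTG was that of LMLN, and PAK2 held 4 GC boxes, 2 of them overlapping. The BCL6 window held none of these motifs and 12 CpG dinucleotides, where the median was 21 for members and 10 for all promoters. The median GC content was 65.4% for member windows and 57.6% for all promoters, which were not limited to expressed or protein-coding genes. Whether this composition accounts for the share with a GC box was not tested. A match of letters is a description of the window, not of a factor bound there.

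The label of the set as expressed genes held for most but not all members. Of the 35, 31 averaged 5 or more normalized counts across the libraries and were tested, and 28 averaged 100 or more. BDH1, a mitochondrial enzyme of ketone body metabolism, had no count in any library. FGF12, an intracellular fibroblast growth factor homologue, had 1 count in all 6 libraries together, in WT replicate 3. LPP, a focal adhesion protein, had 0, 1 and 0 counts in WT and 0, 1 and 1 in Delta-TRRAP. SLC51A, the alpha chain of a bile acid transporter, had 0, 4 and 3 counts in WT and 1, 3 and 0 in Delta-TRRAP. These 4 genes cannot show whether they followed the shift. TP63, FAM43A and PIGZ were tested but had means below 100.

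Most measurable members were lower in Delta-TRRAP, by amounts that differed from gene to gene. The median log2 fold change of the 31 tested members was -0.65 (quartiles -0.91 and -0.27), where a negative value means lower in Delta-TRRAP and the median over all 19114 tested genes was 0.03. Among members with a mean of at least 100 the median was -0.69, against -0.09 for all 11462 genes at that level and -0.06 for the 602 such genes on chromosome 3 before EIF4A2. By the edgeR quasi-likelihood test, 24 members passed a Benjamini-Hochberg adjusted p of 0.01 as lower and 2 as higher, where 27.6% and 30.7% of all tested genes did. All of these members had means of at least 100, a level at which 40.05% of the 11462 genes passed as lower and 3197 genes as higher. Adding a fold change of at least 2 left 5 members called lower and 1 called higher, where 6.08% and 16.5% of all tested genes were called. Of the 11462 genes with a mean of at least 100, 680 were called lower and 805 higher. With a fold change of at least 1.5 in its place, 16 members were called lower, where 13.4% of all tested genes were. Every Delta-TRRAP library lay below every WT library for 24 members and above for 4, while 3 overlapped. Over all tested genes these orders were found for 35.1% and 36.0%, and among the 11462 genes with a mean of at least 100 for 5457 and 3539. Because the members were picked from this comparison, these counts are not evidence of the shift.

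Each Delta-TRRAP library showed the shift. Since the members were picked from these same libraries, the values below describe the shift and are not evidence of it. Over the 28 members with a mean of at least 100, the median log2 ratio to the WT mean of the gene was -0.75, -0.65 and -0.73 in Delta-TRRAP replicates 1, 2 and 3, where 25, 24 and 26 members lay below 0. Over all genes at that level the medians in these libraries were -0.11, -0.11 and -0.12, and 56.9% of these genes had a negative log2 fold change. In the WT libraries the members' medians were -0.021, -0.00041 and 0.026, near 0 by construction, since each gene is divided by its own WT mean. The share of all counts that fell on members was 0.333%, 0.337% and 0.342% in WT replicates 1 to 3 and 0.224%, 0.234% and 0.221% in Delta-TRRAP.

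**Figure D1:**
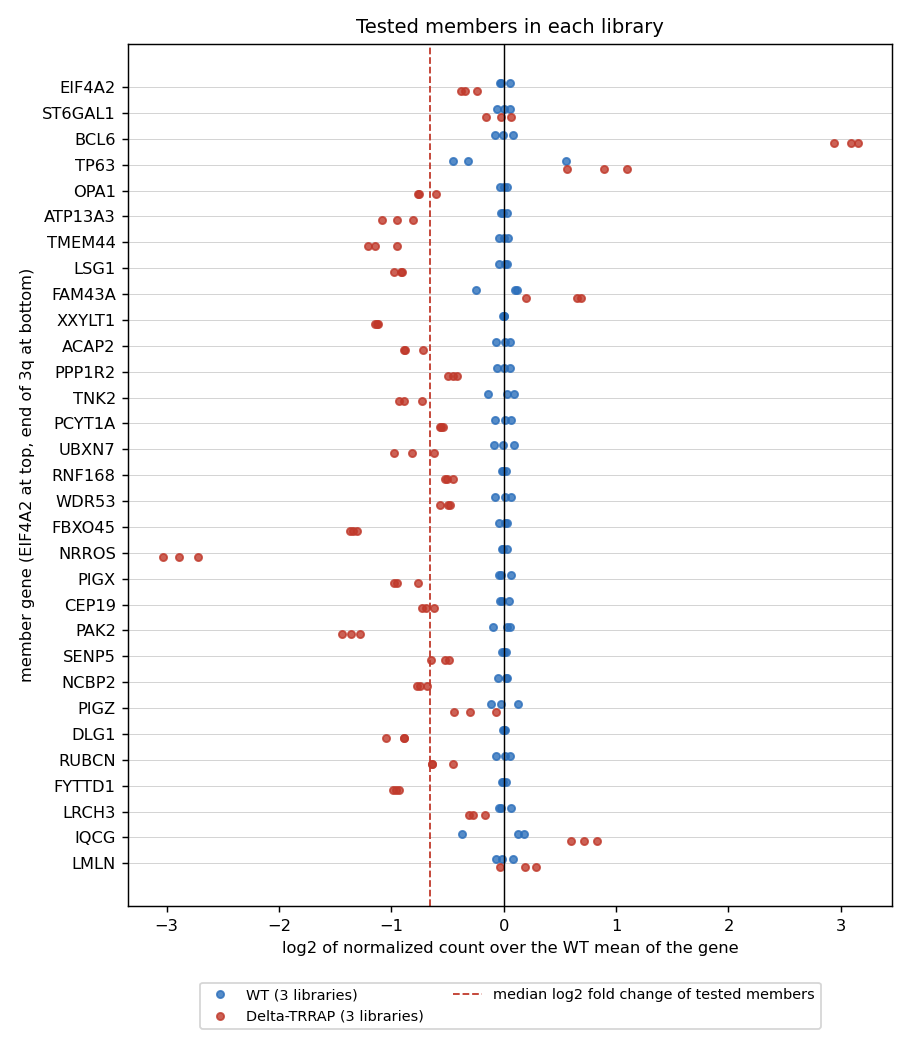
Log2 ratio of the normalized count to the WT mean of the gene (horizontal axis, no unit) for the 31 tested members in 3 WT and 3 Delta-TRRAP libraries, ordered along the chromosome, with the median log2 fold change of -0.65 as a dashed line. Most Delta-TRRAP points lie left of all WT points, BCL6 lies far to the right and NRROS far to the left.

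The shift was not uniform. Within 0.3 log2 units of the members' median lay 17 of the 31 tested members, 9 lay above that window and 5 below it. The standard deviation of the log2 fold changes over the 28 members with a mean of at least 100 was 0.94. The median standard error of a single gene was 0.060, so members differed by more than replicate error. The standard deviation was also 0.94 over all 11462 genes at that level, and 0.95 over the 602 on chromosome 3 before EIF4A2. A spread of that size was thus not particular to the members. Most of the members' spread came from both ends. Without BCL6 and NRROS, a removal chosen after the values were seen, their standard deviation was 0.46. The quartile range of these 28 was 0.46, against 0.70 for genes at that level on chromosome 3 before EIF4A2. Across the same 28 genes, the log2 fold change had a Spearman rank correlation of -0.25 with WT level, -0.11 with gene span and 0.020 with position. Pearson correlations, with each measure on the log2 scale, were -0.46 for WT level, -0.047 for span and -0.44 for position. They include BCL6, with a log2 fold change of 3.08, a WT mean of 54.2 and a start 0.94 Mb beyond that of EIF4A2. Pearson values weigh such a far point more than rank correlations do, and they were not computed without it. All these correlations are descriptions over neighbouring genes of the same libraries, and WT libraries enter both the level and the fold change.

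Along the chromosome, falls prevailed over 1 run of members, with interruptions, and were mixed on either side of it. From OPA1, 6.81 Mb beyond the start of EIF4A2, to LRCH3, 11.01 Mb beyond it, 25 members were tested and all but 1 had a negative log2 fold change. Of these, 23 passed the adjusted p as lower with no overlap between groups, and all 23 had means of at least 100 (median log2 fold change -0.80, from -2.85 to -0.22). Among all 11462 genes with such means, 40.05% passed as lower, and 5457 had every Delta-TRRAP library below every WT library. The other 2 tested members, FAM43A and PIGZ, lay inside the run and had low counts. FAM43A interrupted it, at 0.56 ± 0.22 (SE), with all Delta-TRRAP libraries above all WT libraries but without passing. PIGZ overlapped between groups. The 4 tested members before OPA1 were EIF4A2, ST6GAL1, BCL6 and TP63, of which EIF4A2 alone passed as lower. The last 2 members before the telomere, IQCG and LMLN, were not lower. These boundaries were drawn after the values were seen, so the count of 23 depends on them. They describe members only. Among other genes with a mean of at least 100, RFC4, RPL39L, CCDC50 and AC073365.1, before OPA1, passed as lower, as did RPL35A beyond LRCH3. Inside the run, SDHAP1, TFRC, LINC00885, NCBP2AS2 and MELTF passed as lower and TMEM44-AS1 as higher. HES1, MUC20-OT1, AC124944.2, TM4SF19 and AC132008.2 did not pass.

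**Figure D2:**
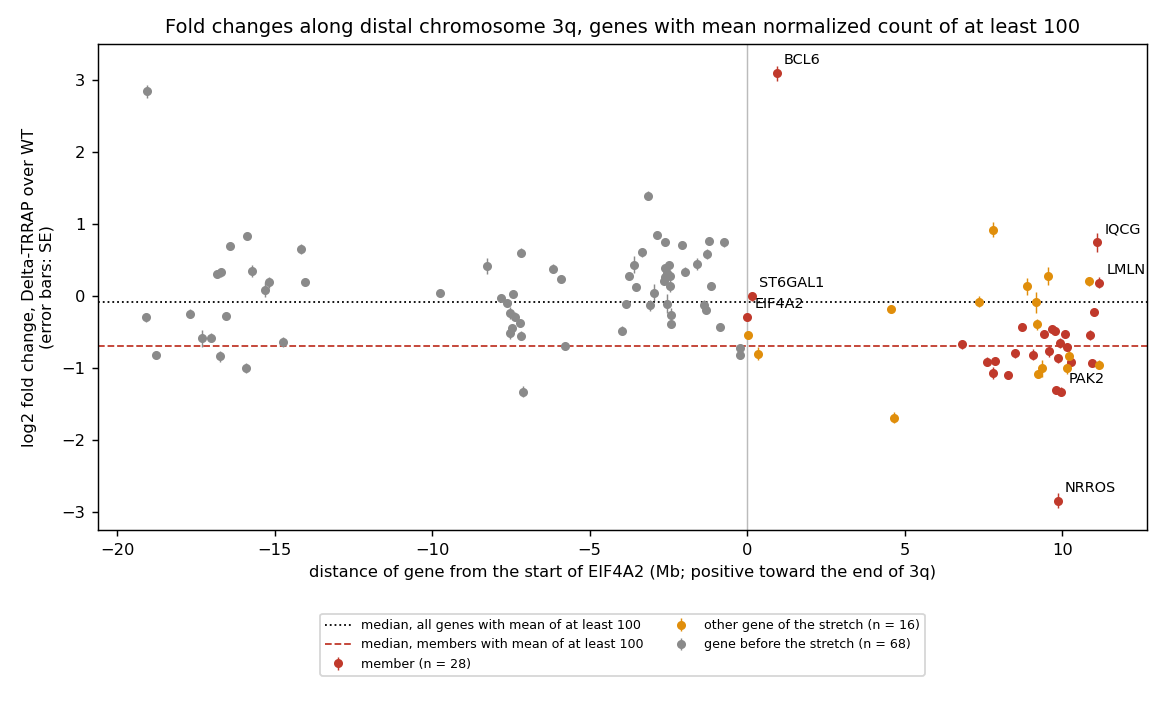
Log2 fold change of Delta-TRRAP over WT (vertical axis, error bars SE) against distance from the start of EIF4A2 in Mb, for genes of chromosome 3 that averaged 100 or more normalized counts, with 28 members in red, 16 other genes of the stretch in orange and nearby genes before it in grey. Horizontal lines mark the median of all such genes (-0.09, dotted) and of members (-0.69, dashed). Between OPA1 and LRCH3 all members lie below 0, from -2.85 to -0.22, while ST6GAL1, BCL6, IQCG and LMLN do not follow.

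Genes of RNA handling and protein synthesis were all lower, and none by 2-fold: 4 of 4 members passed the adjusted p, with a median log2 fold change of -0.81. Over all tested genes 27.6% passed as lower, and 40.05% of those with means of at least 100. Counts by role, here and below, describe members picked as lower and are not results about a role. EIF4A2 (ENSG00000156976.17, chromosome 3, 186783205 to 186789897), a helicase that unwinds mRNA leaders for translation initiation, had normalized counts of 16886, 15920 and 16060 in WT and 12829, 12519 and 13855 in Delta-TRRAP. The groups did not overlap, yet the log2 fold change of -0.29 ± 0.05 (SE) left EIF4A2 well above the common shift. With library size scaling it was -0.16 and did not pass (edgeR adjusted p = 0.0129). In the annotation used here, later than that of the counts, small nucleolar RNA and microRNA genes inside it share 10.5% of its exon bases. FYTTD1, an mRNA export adaptor, counted 11672, 11473 and 11341 in WT and 5817, 6025 and 5920 in Delta-TRRAP, a log2 fold change of -0.93 ± 0.05 (SE). LSG1, a GTPase of large ribosomal subunit maturation, had -0.91 ± 0.05 (SE). NCBP2, the smaller subunit of the nuclear cap-binding complex, had -0.71 ± 0.05 (SE).

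Ubiquitin, SUMO and DNA repair genes were lower, while BCL6 and TP63, the sequence-specific transcription factors among the members, were not. Of these 6 members, 4 passed the adjusted p as lower and 1 as higher. FBXO45 (ENSG00000174013.8, chromosome 3, 196568611 to 196589059), a substrate receptor of a ubiquitin ligase, had normalized counts of 9295, 9201 and 8852 in WT and 3607, 3683 and 3524 in Delta-TRRAP. Its Delta-TRRAP level was 0.395 of WT, with a log2 fold change of -1.31 ± 0.05 (SE) that was called. UBXN7, an adaptor of the p97 ATPase, SENP5, a SUMO protease, and RNF168, the ligase that ubiquitinates H2A at double-strand breaks, had -0.77 ± 0.08, -0.53 ± 0.05 and -0.47 ± 0.05 (SE).

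BCL6 (ENSG00000113916.18, chromosome 3, 187721377 to 187745725) went against its neighbours. Its normalized counts were 57.4, 54.0 and 51.3 in WT and 415.5, 463 and 482 in Delta-TRRAP, so that its mean was 8.36-fold higher in Delta-TRRAP. Its log2 fold change was 3.08 ± 0.11 (SE), the only call in that direction among the members, and it ranged from 3.04 to 3.22 over the alternative fits. Per kb of exon, the level went from 0.222 ± 0.012 to 2.07 ± 0.15 CPM (SD, n = 3), from rank 29 to rank 24 of the 35 members. TP63 was barely counted, with normalized counts of 6.15, 6.75 and 12.3 in WT and 15.6, 12.4 and 17.9 in Delta-TRRAP. The groups of TP63 did not overlap, but its log2 fold change of 0.88 ± 0.36 (SE) did not pass the adjusted p.

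Genes of membranes, lipids, glycans and mitochondria shared the shift with a single well-counted exception. Of 9 members, 7 were tested and 5 passed the adjusted p as lower. XXYLT1, which adds xylose to the sugars of Notch receptors, had normalized counts of 1373, 1369 and 1371 in WT and 632.5, 626.5 and 618 in Delta-TRRAP, a log2 fold change of -1.11 ± 0.05 (SE) that was called. ATP13A3, a P-type ATPase linked to polyamine transport, had 14317, 14176 and 14649 in WT and 7449, 8215 and 6806 in Delta-TRRAP, a log2 fold change of -0.92 ± 0.07 (SE). OPA1, the GTPase of inner mitochondrial membrane fusion, had -0.68 ± 0.06 (SE). PIGX, a stabilizing subunit of the first mannosyltransferase of GPI anchor synthesis, had -0.87 ± 0.06 (SE). PCYT1A, which makes CDP-choline for phosphatidylcholine, had -0.53 ± 0.05 (SE).

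ST6GAL1 (ENSG00000073849.15, chromosome 3, 186930325 to 187078553), the sialyltransferase that adds alpha-2,6-linked sialic acid to N-glycans, was the exception. Its normalized counts were 5466, 5693 and 5917 in WT and 5603, 5957 and 5104 in Delta-TRRAP, so the groups overlapped, with means of 5692 ± 225 and 5555 ± 429 (SD, n = 3). The log2 fold change was -0.01 ± 0.06 (SE), and it went from -0.067 to 0.12 over the alternative fits. PIGZ, a mannosyltransferase of GPI anchors, had 41.0, 43.4 and 48.2 in WT and 42.0, 32.5 and 35.9 in Delta-TRRAP, which overlapped (log2 fold change -0.24 ± 0.19, SE).

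Signalling, adhesion and trafficking genes passed the adjusted p as lower in all 8 of the 10 members tested, LRCH3 by the smallest margin. PAK2 (ENSG00000180370.10, chromosome 3, 196739857 to 196832647), a kinase activated by Rac and CDC42, had normalized counts of 13844, 15092 and 15328 in WT and 5455, 6066 and 5735 in Delta-TRRAP. Its level was 0.39 of WT, with a called log2 fold change of -1.33 ± 0.06 (SE), the largest fall among members with means of at least 500, though within error of that of FBXO45. Per kb of exon, again without TMM scaling, PAK2 stood at rank 2 of the members in both groups. It had 57.3 ± 3.16 and 24.9 ± 1.33 CPM (SD, n = 3), behind EIF4A2 at 64.7 ± 2.01 and 57.8 ± 2.83. In WT these 2 levels were closer to each other than to FBXO45, at rank 3 with 37.1 ± 0.90.

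NRROS (ENSG00000174004.6, chromosome 3, 196639694 to 196662004), which anchors latent TGF-beta on myeloid cells, fell furthest. It had normalized counts of 421, 419 and 431 in WT and 51.8, 57.3 and 64.4 in Delta-TRRAP. The level in Delta-TRRAP was 0.137 of WT, and the called log2 fold change was -2.85 ± 0.10 (SE). In the later annotation its exons share 7.6% of their bases with those of PIGX on the same strand, while PIGX itself lay within the common window.

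The remaining signalling members lay closer to the common shift. DLG1, a scaffold of cell polarity, had normalized counts of 5525, 5477 and 5440 in WT and 2955, 2962.5 and 2655 in Delta-TRRAP, a log2 fold change of -0.91 ± 0.06 (SE). TNK2, a CDC42-binding tyrosine kinase, and ACAP2, a GTPase-activating protein of ARF6, had -0.82 ± 0.08 and -0.80 ± 0.06 (SE), and 7.1% of the exon bases of TNK2 lie in another gene of its strand in that annotation. RUBCN, a negative regulator of autophagy, had -0.55 ± 0.07 (SE), and PPP1R2, an inhibitor of protein phosphatase 1, had -0.43 ± 0.05 (SE). LRCH3, a leucine-rich repeat protein, had the smallest fall among them at -0.22 ± 0.06 (SE), with 1820, 1836.5 and 1963 in WT and 1511, 1673 and 1546 in Delta-TRRAP. LRCH3 did not pass the edgeR adjusted p with upper quartile (adjusted p = 0.060) or library size scaling (log2 fold change -0.09, adjusted p = 0.17), with a minimum mean of 50 (adjusted p = 0.024), without WT replicate 3 (adjusted p = 0.018) or without Delta-TRRAP replicate 1 (adjusted p = 0.020).

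Cilium-related and less studied genes split, with 3 of 6 members passing as lower and 1 as higher. TMEM44, a membrane protein, had normalized counts of 532, 546 and 561.5 in WT and 283.5, 236 and 247 in Delta-TRRAP, a called log2 fold change of -1.07 ± 0.08 (SE). CEP19, a protein of the mother centriole, had -0.65 ± 0.07 (SE), and WDR53, a WD repeat protein, had -0.49 ± 0.06 (SE). The calls of TMEM44 and XXYLT1 rested on the fold change of 2: with libraries scaled by size alone, log2 fold changes were -0.94 and -0.97.

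IQCG and LMLN, at the telomeric end, were the other well-counted escapes. IQCG (ENSG00000114473.14, chromosome 3, 197889077 to 197960142), a component of the dynein regulatory complex of motile cilia, had normalized counts of 96.3, 136 and 142 in WT and 189, 222 and 205 in Delta-TRRAP. All Delta-TRRAP libraries lay above all WT libraries, and the log2 fold change of 0.74 ± 0.13 (SE) passed the adjusted p without a fold change of 2. LMLN (ENSG00000185621.11, chromosome 3, 197960200 to 198043720), a metallopeptidase, had 865, 899 and 963 in WT and 1038, 1110 and 886 in Delta-TRRAP. Its replicate 3 in Delta-TRRAP lay within the WT range, and the log2 fold change of 0.18 ± 0.08 (SE) did not pass. FAM43A, a gene of unclear role, had 28.7, 28.9 and 22.6 in WT and 42.0, 42.98 and 30.6 in Delta-TRRAP, with a log2 fold change of 0.56 ± 0.22 (SE) that did not pass. BCL6, TP63, FAM43A, IQCG and LMLN were the 5 members at or above the median of all tested genes (0.03), and ST6GAL1 (-0.01) lay just below that median. Among genes with a mean of at least 100 the median was -0.09, and ST6GAL1 lay above it.

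**Figure D3:**
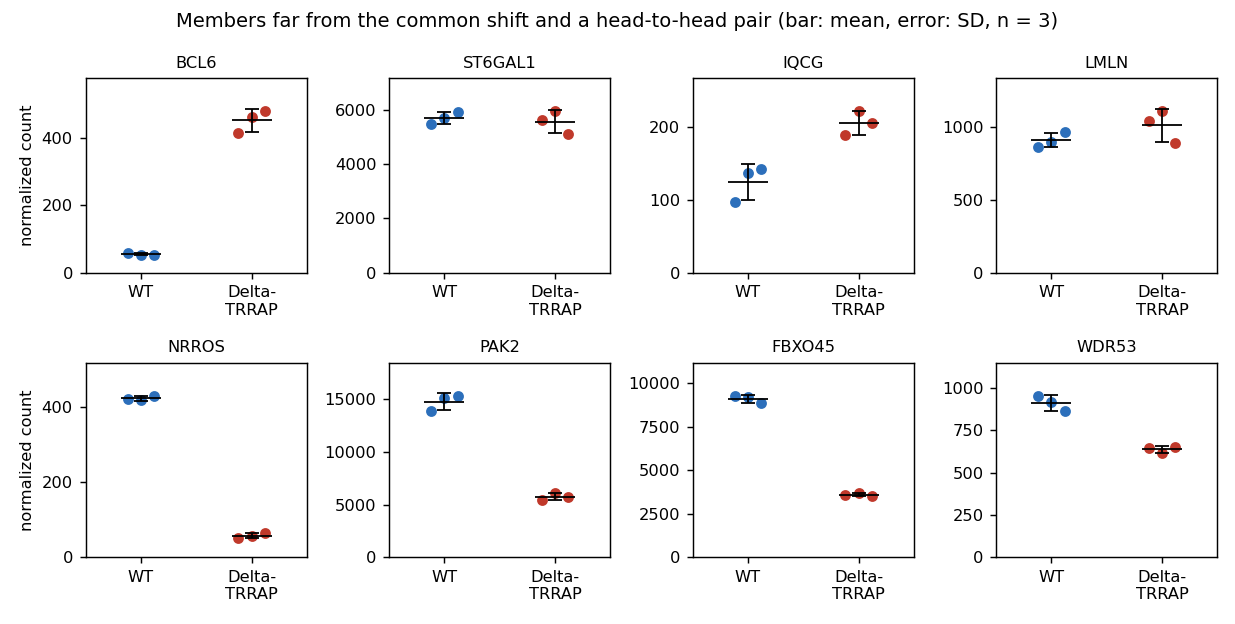
Normalized counts (vertical axis, from 0) of 8 members in 3 WT and 3 Delta-TRRAP libraries, with the mean as a horizontal bar and the SD as error bars. BCL6 and IQCG are higher in Delta-TRRAP, ST6GAL1 and LMLN overlap, and FBXO45 (0.395 of WT) falls further than its head-to-head partner WDR53 (0.70 of WT).

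Pairs of genes that start next to each other on opposite strands did not always move alike. FBXO45 and WDR53, whose RefSeq starts lie 106 bases apart, had log2 fold changes of -1.31 ± 0.05 and -0.49 ± 0.06 (SE). FYTTD1 and RUBCN, with starts 287 bases apart and overlapping, had -0.93 ± 0.05 and -0.55 ± 0.07 (SE). PIGX and CEP19, 127 bases apart, had -0.87 ± 0.06 and -0.65 ± 0.07 (SE). LMLN and IQCG, whose annotated gene starts lie 58 bases apart (GENCODE), both escaped, at 0.18 ± 0.08 and 0.74 ± 0.13 (SE). NCBP2 and NCBP2AS2, a gene outside the set that starts 80 bases away, had -0.71 ± 0.05 and -1.01 ± 0.08 (SE). Counting was by strand, so the genes of a pair were counted apart. Differences within pairs were not tested, since these members were chosen from the same comparison.

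Other genes of the same stretch were then listed, from the start of EIF4A2 to the end of the chromosome. Of 50 such genes tested, the median log2 fold change was -0.17, 15 passed the adjusted p as lower and 6 as higher. The 15 are 30% of these genes, near the 27.6% of all tested genes that passed as lower, while 30.7% of all tested genes passed as higher. This median moved between -0.39 and -0.22 when 1 library was left out. The 16 with a mean of at least 100 had a median of -0.47, with 10 lower and 1 higher. Of all 11462 genes at that level, 40.05% passed as lower and 3197 genes as higher. TFRC, the transferrin receptor, went from 193716 ± 1923 to 89385 ± 4323 normalized counts (SD, n = 3), with a log2 fold change of -1.09 ± 0.06 (SE). RPL35A, a protein of the large ribosomal subunit, lies on the opposite strand within IQCG and had -0.96 ± 0.06 (SE) while IQCG was higher. RFC4, a clamp loader subunit, and RPL39L, a ribosomal protein paralog, both near EIF4A2, had -0.55 ± 0.05 and -0.81 ± 0.09 (SE). MELTF, a transferrin homologue, and the non-coding genes LINC00885 and AC073365.1 had -0.83 ± 0.10, -1.01 ± 0.12 and -1.70 ± 0.08 (SE). CCDC50 passed as lower at -0.19 ± 0.05 (SE), and SDHAP1, a pseudogene, at -0.40 ± 0.08 (SE).

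Escapes were found among these genes too. TMEM44-AS1, the antisense RNA of TMEM44, had 142 ± 14.0 in WT and 264 ± 21.0 in Delta-TRRAP (SD, n = 3), a log2 fold change of 0.92 ± 0.10 (SE), in the opposite direction to TMEM44. HES1, a repressor downstream of Notch, had -0.08 ± 0.08 (SE) and overlapped between groups. MUC20-OT1, AC124944.2, TM4SF19 and AC132008.2 had log2 fold changes from -0.09 to 0.27 and did not pass, and each shares between 24.3% and 100% of its exon bases with another gene on its strand in the later annotation. AC132008.2 and SDHAP1 were counted although all their exon bases are shared there, so these overlaps do not describe the annotation used for counting.

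**Figure D4:**
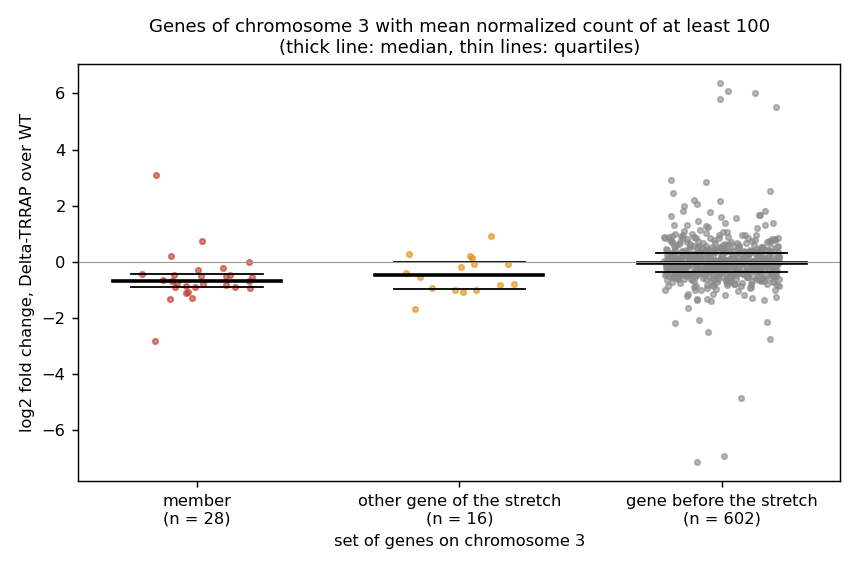
Log2 fold change of Delta-TRRAP over WT (vertical axis) for genes of chromosome 3 that averaged 100 or more normalized counts, as 28 members, 16 other genes of the stretch and 602 genes before it, with medians (thick lines) and quartiles (thin lines). Medians are -0.69, -0.47 and -0.06, and points of each set overlap.

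Genes on the centromeric side of the set were mixed. The 2 expressed genes next to EIF4A2 on its centromeric side were DNAJB11, a chaperone of the endoplasmic reticulum, at -0.83 ± 0.05 (SE) and TBCCD1 at -0.73 ± 0.06 (SE). Beyond them, ETV5, an ETS family factor 0.673 Mb from EIF4A2, was higher at 0.74 ± 0.06 (SE). Of the 7 next genes, SENP2, LIPH and EHHADH passed as higher (0.76 ± 0.05, 0.57 ± 0.07 and 0.44 ± 0.08, SE), TRA2B and TMEM41A passed as lower (-0.43 ± 0.05 and -0.20 ± 0.05, SE), and IGF2BP2 and the pseudogene RPL4P4 did not pass (0.13 ± 0.06 and -0.13 ± 0.07, SE). In windows of 10 Mb over the rest of chromosome 3, the 11 windows with at least 20 genes had medians from -0.31 to 0.21. The other 8 windows held fewer genes, down to 2, and the highest of their medians was 1.27.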

How the data were processed

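RNA-seq libraries were stranded and poly(A)-selected. The authors aligned uniquely mapping reads to hg38 with STAR and deposited raw counts per gene from HTSeq 2.0.2 (union mode, reverse strand, GENCODE genes). Reads mapping to several places, or to 2 genes of 1 strand, were not counted. The authors also deposited normalized values, of which 3 columns belong to samples not analysed here, and a table of their own comparison (fold changes and p-values). Neither was used.

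Differences were tested by the quasi-likelihood test of edgeR 4.0.16 (R 4.3.3, TMM scaling, group as only term) on the 19114 genes that averaged 5 or more normalized counts. Calls required an adjusted p (Benjamini-Hochberg, all tested genes) no larger than 0.01 and, where stated, a fold change of at least 2, thresholds taken from the study, which used DESeq2. The script was tested on simulated data. Standard errors are the log2 fold change divided by the square root of F. Positions and exon lengths came from GENCODE on GRCh38 (19041 tested genes matched by ID), a later release than that of the authors. Motifs were searched on both strands of the 250 bases before the most upstream RefSeq start of each gene. Total counts of 35076835 to 42616061 per library set the precision, and SD and SE cover the spread between 3 libraries. Chi-square per degree of freedom between replicates of a group was 4.93 to 15.5, above counting error, so none was a repeat.

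All 35 members are named, with other genes of the stretch and the 10 nearest centromeric genes where their mean was at least 100. The members and lists were chosen with earlier results of these data known. Alternatives were DESeq2 1.42.0, limma-voom (limma 3.58.1), other scalings, filters and thresholds, a replicate block and leaving out each library.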

Additional observations from a re-analysis of the deposited data

How the results depend on the processing

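Members kept their directions under most alternatives. Over all fits, no called member changed sign, and ST6GAL1, which was not called, was the single member to turn from negative to positive, in 5 alternatives (up to 0.12, with library size scaling). TMEM44 lost its call with upper quartile scaling (-0.97), library size scaling (-0.94) and a minimum mean of 50 (-0.999, just under a fold change of 2), and XXYLT1 with library size scaling (-0.97). EIF4A2 and LRCH3 did not pass the adjusted p as lower with library size scaling (22 members passed), nor LRCH3 with upper quartile scaling or a minimum mean of 50 (23 passed in each). With library size scaling 3 members were called lower, the median of members was -0.52 and that of other genes of the stretch -0.027. That scaling moved the median of all genes by 0.14, and relative to it the members' median was -0.69. With upper quartile scaling the 2 medians were -0.55 and -0.072. Without a filter the median of the then 121 other genes was -0.013, and with means of at least 100 it was -0.47. At a fold change of 1.5, 16 members were called lower and 2 higher. A window of 0.2 log2 units held 11 members. Among members with means of at least 100, 3 lay at or above the median of all tested genes, and with means of at least 500 the standard deviation was 0.37, as BCL6, NRROS, TMEM44 and IQCG have lower means.

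Leaving out 1 library at a time gave a members' median of -0.67 to -0.63 and a median of other genes of -0.39 to -0.22. All 6 of the latter lay below the value of -0.17 from all libraries, by over 1.5 times except without WT replicate 1, and the cause was not tested. In these fits 5 members were called lower, 1 higher, 23 to 24 passed as lower (LRCH3 did not without WT replicate 3 or Delta-TRRAP replicate 1), 16 to 17 lay in the window, 5 to 6 lay at or above the median of all tested genes, and the standard deviation was 0.93 to 0.94. Same-numbered libraries did not deviate together (correlations of -0.035 to -0.011 over genes), so the numbers do not pair them. With the replicate block, counts of members called were 5 lower and 1 higher, 24 passed as lower, and the median was -0.65. Low counts limit PIGZ, FAM43A and TP63, and the 4 members below the filter cannot be read.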
